A study of Mus musculus with 63 samples.

Results

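Regional genes of the small intestine were followed in 63 RNA-seq libraries from intestinal tumours of the Apchet plus ENU mouse model. The set held 8 genes, taken by symbol from the 24766 genes of the table of normalised read counts. Each symbol matched exactly 1 gene. Fabp6, Slc10a2, Fgf15 and Osr2 were taken as genes of the distal small intestine. Onecut2, Pdx1, Slc40a1 and Cybrd1 were taken as genes of the proximal small intestine.

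The small intestine changes its absorptive tasks along its length. Iron is taken up mainly in the duodenum, where Cybrd1 (duodenal cytochrome b) reduces dietary iron at the apical surface and Slc40a1 (ferroportin) exports it into the blood, and where the homeodomain factor Pdx1 is expressed as it is in the pancreas. Bile acids are recovered in the ileum through the apical sodium-dependent transporter Slc10a2 and the cytosolic binding protein Fabp6, and ileal enterocytes that sense them secrete the hormone Fgf15, which lowers bile acid synthesis in the liver. Onecut2 (a ONECUT homeodomain factor) and Osr2 (an odd-skipped zinc finger factor) are transcription factors with regional expression in the epithelium.

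The libraries came from 2 Villin-creER;Apcfl/+;Rosafl/Confetti mice, 1 female and 1 male, so sex and animal cannot be told apart. All tumours shared the loss of 1 Apc allele in Villin-expressing epithelium after 4 mg tamoxifen at an age of 8 weeks or more and the mutagen N-ethyl-N-nitrosourea (ENU) at 200 mg/kg, given 10 days later. From 20 heterotypic tumours, in which glands differed in the Confetti lineage reporter (by colour, or a colour beside unlabelled glands), a larger (major) and a smaller (minor) clone were dissected and sequenced separately. These are called divided tumours here, and the class of each clone came from the source data of the study. Another 23 tumours were each sequenced as 1 library and are called undivided. The design text of the series counts 20 monoclonal tumours in their place, and which 20 of the 23 it means is not given in the sources used here. The labels placed every library in segment SI10, SI20 or SI30 of the small intestine, but the position of these segments is not given in the sources used here. Undivided tumours came from SI10 (12 tumours, 5 female and 7 male) and SI20 (11 tumours, 5 female and 6 male). Divided tumours came from SI10 (7 tumours, 3 female and 4 male), SI20 (10 tumours, 4 female and 6 male) and SI30 (2 tumours, both female). Tumour 22 of the female mouse carried both labels, SI20 for its major and SI10 for its minor clone, and was left out of comparisons between segments. Libraries of normal intestine were not analysed here, so all comparisons were among tumours.

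Normalised read counts summed to between 26140227 and 45909885 per library, with a median of 30889255. Undivided tumours 15, 17 and 18 of the male mouse stood outside the tumour numbers 1 to 10 of the other undivided tumours and held the 2 lowest Slc10a2 values of the 63 libraries. Undivided tumour 6 of the female mouse was labelled SI20 but had the regional gene levels of SI10 tumours, as described below. Results that rest on these 4 libraries are given with and without them. The tumours of a mouse were the units of every test, so p-values measure the spread between tumours of 2 animals.

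In GRCm39 (Gencode M39), Osr2 was at chr15:35296196-35303673 on the plus strand, Pdx1 at chr5:147206769-147212658 on the plus strand, Slc40a1 at chr1:45947211-45965683 on the minus strand and Cybrd1 at chr2:70948267-70973270 on the plus strand. Fabp6 was at chr11:43486872-43492469 on the minus strand, Slc10a2 at chr8:5133219-5155351 on the minus strand and Fgf15 at chr7:144450268-144454690 on the plus strand. All genes of the set except Fabp6 and Osr2 were overlapped by a long non-coding gene on the opposite strand. The library kit kept the strand, but the strand setting of the counting is not given in the sources used here.

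RefSeq promoter sequences were matched for 4 of the 8 genes. Pdx1 and Cybrd1 are shown as genes taken as proximal, with lower levels in SI20 than in SI10. Slc10a2 and Fabp6 are shown as genes taken as distal. In these tumours no difference of Slc10a2 between SI20 and SI10 passed the threshold, and Fabp6 was too low to enter the fits. The 250 bases before each transcription start are printed from 5′ to 3′ on the strand of the gene, from build GRCm38.p6. Capitals mark matches of the motif TTTATNG, a CDX-type motif, on either strand.
Pdx1 (chr5:147269847-147270096, plus strand): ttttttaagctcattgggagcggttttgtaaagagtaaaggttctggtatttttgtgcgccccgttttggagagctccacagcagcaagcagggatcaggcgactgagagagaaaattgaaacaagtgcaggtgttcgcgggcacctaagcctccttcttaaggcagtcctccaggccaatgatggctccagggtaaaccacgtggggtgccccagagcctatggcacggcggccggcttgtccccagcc
Cybrd1 (chr2:71117804-71118053, plus strand): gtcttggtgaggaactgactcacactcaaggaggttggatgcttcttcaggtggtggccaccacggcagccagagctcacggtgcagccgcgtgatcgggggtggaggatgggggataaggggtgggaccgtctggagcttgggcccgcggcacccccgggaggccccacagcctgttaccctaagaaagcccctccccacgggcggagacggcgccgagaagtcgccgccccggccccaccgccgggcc
Slc10a2 (chr8:5105288-5105537, minus strand): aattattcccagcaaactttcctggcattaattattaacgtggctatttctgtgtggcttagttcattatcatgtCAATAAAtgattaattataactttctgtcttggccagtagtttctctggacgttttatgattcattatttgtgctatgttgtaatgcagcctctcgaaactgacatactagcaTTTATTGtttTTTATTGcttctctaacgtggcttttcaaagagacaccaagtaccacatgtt
Fabp6 (chr11:43601563-43601812, minus strand): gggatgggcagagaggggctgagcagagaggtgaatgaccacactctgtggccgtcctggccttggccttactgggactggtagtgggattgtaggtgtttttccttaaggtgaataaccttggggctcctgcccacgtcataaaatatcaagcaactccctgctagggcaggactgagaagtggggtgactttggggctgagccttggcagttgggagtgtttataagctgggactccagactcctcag
Slc10a2 held 3 matches of TTTATNG, which began 175, 62 and 52 bases before the start and did not overlap each other. The motif was found in 9.81% of 32851 promoters of the same length. Other motifs had no match in these 4 windows on either strand. These were AGGTCA, a half-site of nuclear receptors (in 14.0% of promoters), AGATAA, bound by factors of the GATA family (in 9.99%), and CAAAGTCCA, an HNF4-type motif (in 0.384%). The windows differed in base composition, from 34.4% G and C in Slc10a2 to 69.2% in Cybrd1, against a median of 52.4% over all promoters. Slc10a2 held 4 CpG sites, Fabp6 held 2, Pdx1 held 10 and Cybrd1 held 19, with a median of 6 over all promoters.

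The level of the genes set which of them could be compared. Slc10a2, Onecut2, Osr2, Pdx1, Slc40a1 and Cybrd1 had a mean normalised read count of at least 10 and entered the fits. Fabp6 and Fgf15 did not. The ileal genes Fabp6 and Fgf15 were near the bottom of the table in every segment. Fabp6 had a median of 3.46 over the 63 libraries and a highest value of 23.5, and 52 libraries were below 10. Fgf15 was at 0 in 42 libraries. Its highest values were 27.8 in undivided female tumour 3, labelled SI10, and 23.4 in undivided female tumour 6, labelled SI20. No other library reached 10 for Fgf15. In contrast Slc10a2, the third bile acid gene, was present in every library with a median of 201 and a range of 16.4 to 583. Onecut2 ranged from 834 to 5007. Among the genes with no library at 0, Onecut2 had the narrowest range, its highest value being 6.004 times its lowest. The ratio was 35.6 for Slc10a2, 345 for Slc40a1 (164 to 56550), 504 for Pdx1 (6.33 to 3189) and 754 for Cybrd1 (269 to 203187). Osr2 ranged from 0 to 929. Fewer cells of a type and less RNA per cell cannot be told apart in these bulk samples.

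**Figure D1:**
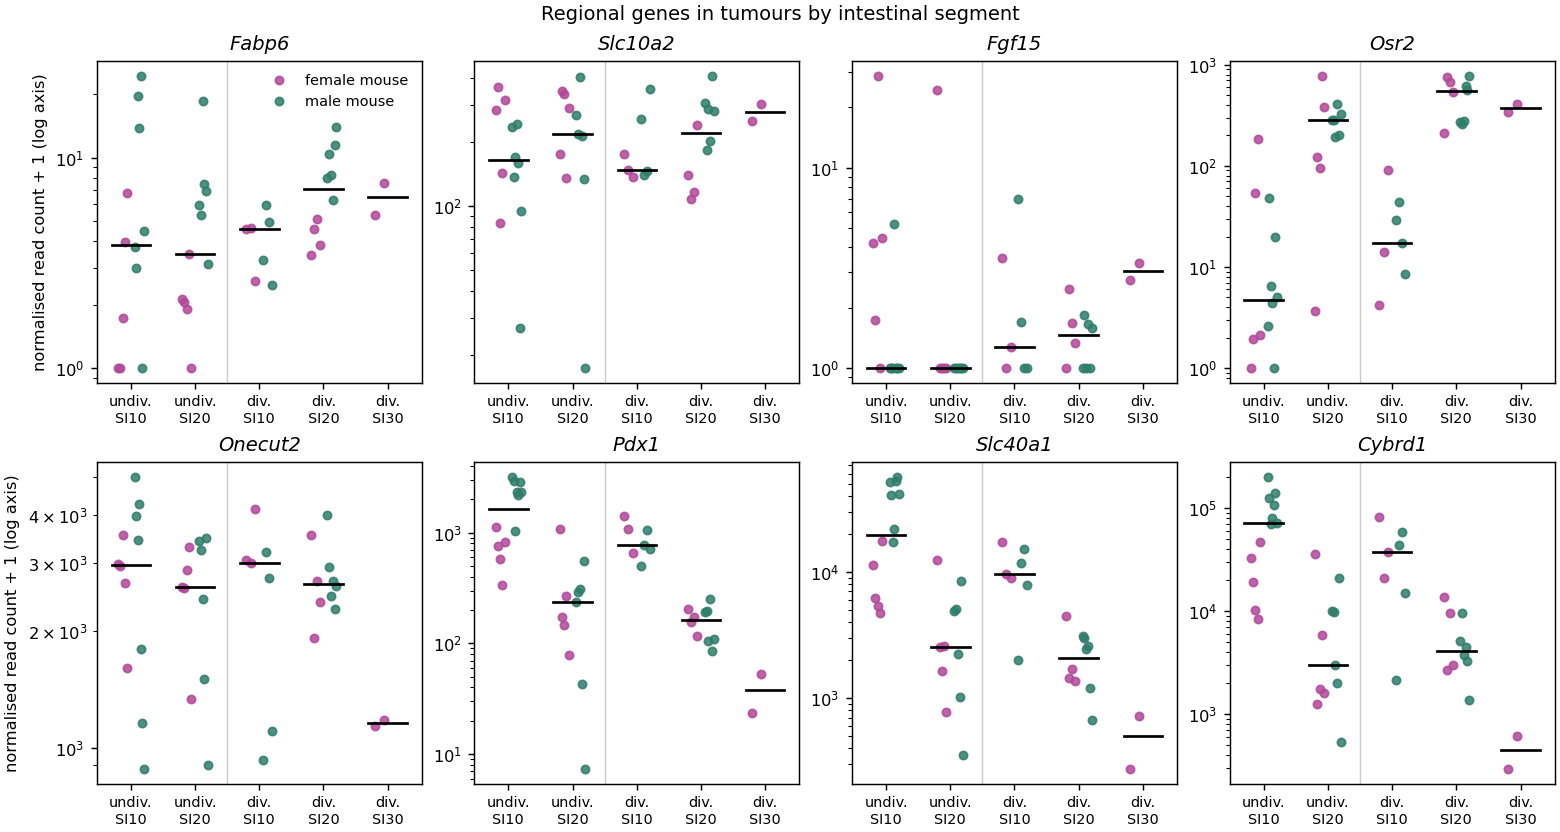
Normalised read count plus 1 on a log axis for each of the 8 genes, with 1 point per tumour (for divided tumours the mean of both clones), coloured by mouse, and a black bar at the median of each segment. Osr2 was high in SI20 and SI30, Pdx1, Slc40a1 and Cybrd1 were high in SI10, and Fabp6 and Fgf15 reached at most 23.5 and 27.8.

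In undivided tumours, Osr2 was higher in SI20 while Pdx1, Slc40a1 and Cybrd1 were higher in SI10. Osr2 had a normalised read count of 0 to 183 in the 12 SI10 tumours, with a median of 3.72. In the 11 SI20 tumours it ranged from 2.66 to 769, with a median of 280. The groups overlapped, because undivided female tumour 6 (2.66) lay at the bottom of the SI20 group and undivided female tumour 4 (183) at the top of the SI10 group. Pdx1 ranged from 336 to 3189 in SI10, with a median of 1649, and from 6.33 to 1084 in SI20, with a median of 237. Its SI20 values exceeded the lowest SI10 value in only 2 tumours, and the highest of them was again female tumour 6. Slc40a1 ranged from 4719 to 56550 in SI10, with a median of 19692. In SI20 it ranged from 351 to 12367, with a median of 2524. Cybrd1 had the largest fall among the iron genes, from a median of 71411 (8486 to 203187) in SI10 to a median of 3014 (540 to 36209) in SI20. For both iron genes, 4 of the 11 SI20 tumours lay above the lowest SI10 tumour.

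These differences passed the test across all genes. On the log2(normalised read count + 1) scale and with mouse as a covariate, SI20 minus SI10 was 4.67 for Osr2 (SE 0.90, limma adjusted p = 0.0278). The difference was -3.05 for Pdx1 (SE 0.61, adjusted p = 0.0313), -2.96 for Slc40a1 (SE 0.52, adjusted p = 0.0214) and -3.63 for Cybrd1 (SE 0.60, adjusted p = 0.0140). So 4 of the 6 tested genes were called, 1 higher and 3 lower in SI20. Across the table, 28 of 16511 genes were called, or 0.17%, and leaving out 1 tumour moved this number between 5 and 53. Osr2 lost its call without any 1 of 11 of the 23 tumours (adjusted p up to 0.0639), Pdx1 without any 1 of 13 (up to 0.0788) and Slc40a1 without any 1 of 3 (up to 0.0552), while Cybrd1 remained called without any 1 tumour (up to 0.0401). Two-sided permutation tests of the segment labels within each mouse gave p = 0.00044 for Osr2, p = 2e-05 for Pdx1, p = 4e-05 for Slc40a1 and p = 7e-05 for Cybrd1, where 1e-05 is the smallest value they could give.

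Slc10a2 and Onecut2 were not called in this comparison. Slc10a2 had a median of 164 (25.8 to 360) in SI10 and 217 (16.4 to 401) in SI20, and every SI10 tumour lay above the lowest SI20 tumour. Its difference was 0.23 (95% confidence interval -0.68 to 1.13, adjusted p = 0.912). Onecut2 had a median of 2966 (879 to 5007) in SI10 and 2601 (901 to 3472) in SI20. Its difference was -0.13 (95% confidence interval -0.73 to 0.46, adjusted p = 0.922). Neither interval held a change as large as those of the 4 called genes. For the genes below the filter, permutation within mouse gave p = 0.971 for Fabp6 (median 2.86 in SI10 and 2.48 in SI20) and p = 0.266 for Fgf15 (median 0 in both segments). The difference of Fgf15 was -0.65. It was -1.01 without female tumour 6 (unadjusted permutation p = 0.0431), so lower in SI20. With male tumours 15, 17 and 18 left out as well, it was -1.18 (unadjusted permutation p = 0.0434). Fgf15 was at 0 in 7 of the 12 SI10 and 10 of the 11 SI20 tumours.

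Undivided tumour 6 of the female mouse carried an SI20 label with SI10-like values for all 4 called genes. Its Osr2 was 2.66, its Pdx1 1084, its Slc40a1 12367 and its Cybrd1 36209. Each value lay within the range of the SI10 tumours of the same mouse, which reached from 0 to 183 for Osr2, 336 to 1131 for Pdx1, 4719 to 17464 for Slc40a1 and 8486 to 47674 for Cybrd1. The other 4 SI20 tumours of that mouse had Osr2 of at least 93.7, Pdx1 of at most 267, Slc40a1 of at most 2557 and Cybrd1 of at most 5912. Without this tumour the differences grew to 5.22 for Osr2, -3.36 for Pdx1, -3.27 for Slc40a1 and -4.03 for Cybrd1, and 53 genes were called across the table. Because the tumour was singled out by these 4 genes, larger differences without it followed from that choice. Whether its label or its expression departs from its place of origin was not tested.

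Tumours 15, 17 and 18 of the male mouse had low Slc10a2 (25.8, 94.2 and 16.4) and low Onecut2 (1160, 879 and 901) for their segments. Tumour 18, labelled SI20, also held the lowest Pdx1 (6.33) of the 63 libraries. Without these 3 tumours no gene was called across the table by limma, and 980 genes were below an unadjusted p of 0.05. The 4 genes then had differences of 4.67, -2.44, -2.47 and -3.20 for Osr2, Pdx1, Slc40a1 and Cybrd1, with adjusted p between 0.104 and 0.130. Permutation within mouse gave p of 0.00128 for Osr2, 0.00038 for Pdx1, 0.00043 for Slc40a1 and 0.00046 for Cybrd1 in these 20 tumours. When female tumour 6 was left out as well, 24 genes were called and all 4 were again among them, with adjusted p between 0.00154 and 0.0127. Female tumour 6 had been singled out by its levels of these same 4 genes. Their return without it is therefore no independent support.

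**Figure D2:**
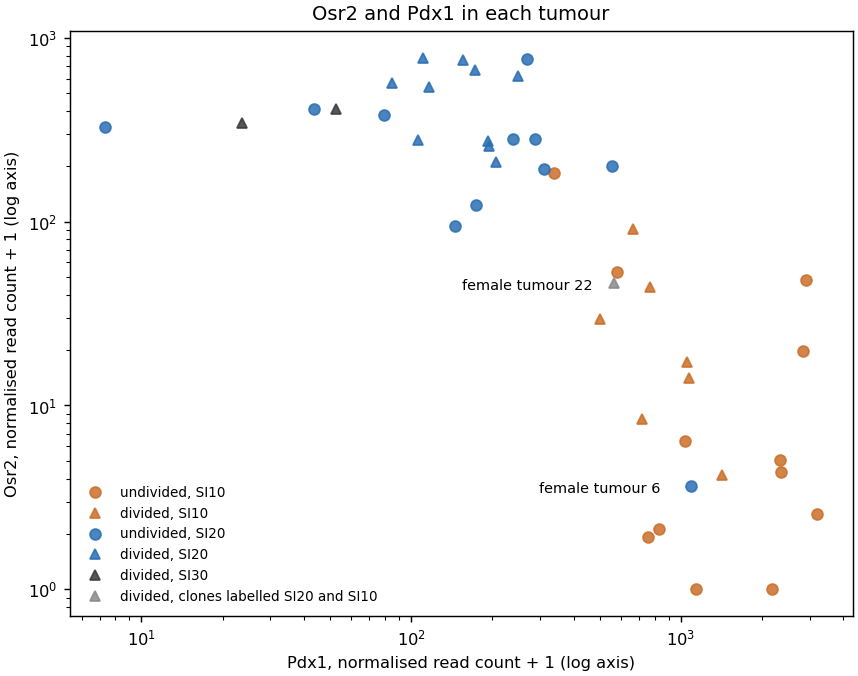
Osr2 against Pdx1, both as normalised read count plus 1 on log axes, with 1 point per tumour, circles for undivided and triangles for divided tumours, coloured by segment label. Divided female tumour 22, with clones labelled SI20 and SI10, had Pdx1 of 563 and Osr2 of 45.4. Apart from it and undivided female tumour 6, tumours labelled SI20 or SI30 had Pdx1 of at most 555. Osr2 was at least 210 in the divided tumours among these. Pdx1 in SI10 tumours reached down to 336, so its ranges overlapped.

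The same directions were seen in divided tumours, in which each tumour was represented by the mean of its 2 clones. Osr2 ranged from 3.20 to 90.7 in the 7 SI10 tumours (median 16.3) and from 210 to 778 in the 10 SI20 tumours (median 552), so the groups did not overlap. Pdx1 ranged from 499 to 1415 in SI10 (median 768) and from 83.8 to 248 in SI20 (median 163), again without overlap. Slc40a1 had a median of 9542 (2015 to 17268) in SI10 and 2066 (672 to 4488) in SI20. Cybrd1 had a median of 37849 (2138 to 82690) in SI10 and 4112 (1370 to 13814) in SI20. The iron genes overlapped through divided male tumour 19, labelled SI10, whose Slc40a1 was 2015 and whose Cybrd1 was 2138. The Pdx1 (499) and Osr2 (28.5) of this tumour stayed on the SI10 side.

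SI20 minus SI10 in divided tumours was 4.64 for Osr2 (SE 0.49, limma adjusted p = 0.000158), -2.58 for Pdx1 (SE 0.26, adjusted p = 0.000119) and -2.18 for Slc40a1 (SE 0.44, adjusted p = 0.0352). These 3 of the 6 tested genes were called, against 50 of 16427 genes or 0.304% across the table. Cybrd1 had a difference of -2.49 (SE 0.60) that missed the threshold (adjusted p = 0.105). The exact permutation test within mouse gave p = 0.000136 for Osr2 and Pdx1, the smallest value it could give, p = 0.00122 for Slc40a1 and p = 0.00395 for Cybrd1. The Slc40a1 call was lost without any 1 of 10 tumours, and its highest adjusted p was 0.114. Slc10a2 (0.19, 95% confidence interval -0.26 to 0.64) and Onecut2 (0.23, 95% confidence interval -0.29 to 0.75) did not pass, with adjusted p of 0.675 and 0.655.

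Fabp6 was also measured in divided tumours, although at a level below the filter. It ranged from 1.47 to 4.96 in SI10 (median 3.56) and from 2.45 to 12.9 in SI20 (median 6.12). The groups overlapped, and the higher values were those of the male mouse, in which the 6 SI20 tumours ranged from 5.29 to 12.9 and the 4 SI10 tumours from 1.47 to 4.96. In the female mouse Fabp6 ranged from 2.45 to 4.08 in SI20 and from 1.59 to 3.65 in SI10. The difference over both mice was 0.96 on the log2 scale (exact permutation p = 0.00259). It was not seen in undivided tumours (0.02, permutation p = 0.971), and at so few reads it is a small difference in counts. Fgf15 stayed at 0 to 5.99 in SI10 and 0 to 1.48 in SI20 (exact permutation p = 0.349).

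**Figure D3:**
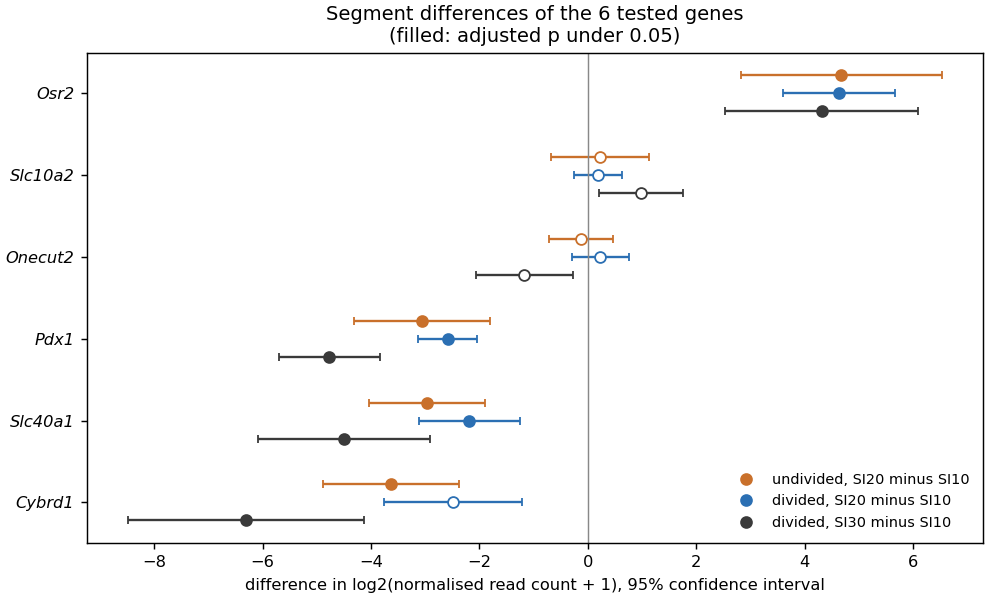
Differences between segments for the 6 tested genes on the log2(normalised read count + 1) scale, with 95% confidence intervals, for SI20 minus SI10 in undivided and divided tumours and for SI30 minus SI10 in divided tumours. Filled points passed an adjusted p of 0.05, and the intervals of Slc10a2 and Onecut2 spanned 0 for SI20 minus SI10 in both kinds of tumour.

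The segment differences were compared directly between the kinds of tumour and between the mice. The difference in divided tumours minus that in undivided tumours was -0.04 for Osr2 (SE 1.17), 0.47 for Pdx1 (SE 0.77), 0.78 for Slc40a1 (SE 0.77) and 1.14 for Cybrd1 (SE 0.97). None of the 6 genes was called by limma, and neither was any gene of the table (0%), while 266 genes were below an unadjusted p of 0.05. The difference in the male mouse minus that in the female mouse was 0.86 for Osr2 (SE 1.15), -1.39 for Pdx1 (SE 0.73), -1.17 for Slc40a1 (SE 0.75) and -1.26 for Cybrd1 (SE 0.96). Again no gene was called by limma (0%), and 1040 genes were below an unadjusted p of 0.05. The intervals of these contrasts were wide, so unequal segment differences of up to several log2 units could not be told from equal ones.

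Within each mouse the differences kept their direction. In undivided tumours of the male mouse, SI20 minus SI10 was 5.47 for Osr2, -4.19 for Pdx1, -3.98 for Slc40a1 and -4.62 for Cybrd1, and all 4 were called (adjusted p between 0.00929 and 0.0439). In the female mouse, with tumour 6 included, the differences were 3.65, -1.58, -1.65 and -2.35, and none was called (adjusted p = 0.999). The SI10 tumours of the male mouse had higher proximal genes than those of the female mouse. Their median Cybrd1 was 108325 (70655 to 203187) against 19054 (8486 to 47674), without overlap, and their median Slc40a1 was 41558 (17257 to 56550) against 6214 (4719 to 17464). Median Pdx1 was 2338 (1036 to 3189) in male and 754 (336 to 1131) in female SI10 tumours. In divided SI10 tumours the medians of the male and female mouse lay closer, at 29632 and 37849 for Cybrd1, 9868 and 9542 for Slc40a1 and 741 and 1071 for Pdx1, so only that of Slc40a1 was higher in the male mouse. The difference between the mice at a given segment was not tested.

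The 2 divided tumours labelled SI30 had the lowest Pdx1 and Cybrd1 of the divided tumours. Their Pdx1 was 22.7 and 51.6, their Slc40a1 272 and 718 and their Cybrd1 291 and 610. For Pdx1 and Cybrd1 both tumours lay below every SI20 tumour, and for Slc40a1 1 of them did. Osr2 was 341 and 407, inside the range of SI20. Onecut2 was 1139 and 1179, below all 10 SI20 tumours (1917 to 3985) but not below 2 SI10 tumours of the male mouse (926 and 1102). Slc10a2 was 250 and 300, inside the ranges of both other segments.

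Against SI10, the SI30 tumours differed by -4.77 for Pdx1 (SE 0.44, limma adjusted p = 4.11e-05), -6.31 for Cybrd1 (SE 1.04, adjusted p = 0.0128), -4.50 for Slc40a1 (SE 0.76, adjusted p = 0.0148) and 4.31 for Osr2 (SE 0.85, adjusted p = 0.0365). These were 4 of the 6 genes, against 0.244% of genes across the table. Without either SI30 tumour only Pdx1 was still called, with adjusted p of at most 0.00542. Slc10a2 (0.98, adjusted p = 0.287) and Onecut2 (-1.17, adjusted p = 0.272) did not pass. Against SI20, none of the 6 genes was called, and 1 gene (Tppp, named here after its value was seen) or 0.00609% of the table was. Cybrd1 differed by -3.82 (SE 1.01, adjusted p = 0.210), Slc40a1 by -2.31 (SE 0.74, adjusted p = 0.231), Pdx1 by -2.18 (SE 0.43, adjusted p = 0.173), Onecut2 by -1.40 (SE 0.42, adjusted p = 0.220), Slc10a2 by 0.79 (SE 0.36, adjusted p = 0.313) and Osr2 by -0.33 (SE 0.83, adjusted p = 0.860). Both SI30 tumours came from the female mouse. With mouse as a covariate, markers of other cells were also lower in SI30 than in SI10, although none of these genes was called. All tested genes had negative fitted differences for fibroblasts (6 of 6, median difference -1.07), smooth muscle (5 of 5, -1.11), erythroid cells (5 of 5, -0.87) and Brunner's glands (2 of 2, -2.03), and 7 of 8 for macrophages (-0.77). Of the macrophage genes, Cd163 had a fitted difference of -0.56. Its values were 17.4 and 27.3 in SI30 and had a median of 15.9 in SI10. Of 10 enterocyte genes 5 were lower (-0.04). The summed fibroblast genes were 2038 to 5859 in SI30 and 1458 to 13703 in SI10, the smooth muscle genes 765 to 1838 and 748 to 4918, and the macrophage genes 1916 to 2977 and 1562 to 5711. The erythroid genes were 4547 to 5503 in SI30, below all SI10 tumours (7394 to 17509), and the Brunner's gland genes were 1694 to 3456, within the SI10 range (347 to 17291). The part of these markers in the SI30 result was not tested.

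A single value per tumour placed all 8 genes on 1 axis. It was the mean log2 level of the 4 distal genes minus that of the 4 proximal genes, and only its differences between tumours carry meaning. In undivided tumours it ranged from -11.5 to -7.09 in SI10 (median -9.71) and from -8.79 to -4.03 in SI20 (median -6.06). In divided tumours it ranged from -9.69 to -5.93 in SI10 (median -8.77) and from -7.10 to -3.93 in SI20 (median -5.55), and it was -3.44 and -2.65 in the SI30 tumours. The order of the medians was SI10, SI20 and SI30, with overlap between SI10 and SI20 in both kinds of tumour. With mouse as a covariate, SI20 exceeded SI10 by 3.51 in undivided and by 3.10 in divided tumours, and by 3.82 in undivided tumours without female tumour 6. Osr2, Pdx1, Slc40a1 and Cybrd1 carried these differences. With female tumour 6 kept, Slc10a2, Fabp6, Fgf15 and Onecut2 differed by less than 1 log2 unit in both kinds of tumour. Without it, Fgf15 differed by -1.01 in undivided tumours.

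The clones of a tumour were then compared. For Osr2, Pdx1, Slc40a1 and Cybrd1, and by less for Onecut2, the log2 difference between the clones of a tumour varied less than the level did between tumours. The SD of that difference and the SD between major clones were 0.94 and 1.62 for Pdx1, 1.07 and 1.70 for Slc40a1, 1.25 and 2.03 for Cybrd1 and 0.46 and 0.63 for Onecut2. They were about equal for Slc10a2 (0.64 and 0.65) and Fgf15 (1.049 and 0.999), and for Fabp6 the difference between clones varied more (1.55 and 1.04). A difference between 2 unrelated clones would vary more than the level of single clones. Equal SDs therefore do not mean that the clones of a tumour were unrelated. Osr2 ranged from 1.95 to 713 over the 20 major clones (median 296) and from 4.44 to 929 over the 20 minor clones (median 204). Its log2 difference between the clones of a tumour had a mean of -0.03 and an SD of 0.85, while its SD between tumours was 2.58 in major clones. Pdx1 had a median of 239 (14.5 to 1246) in major and 200.5 (30.9 to 1584) in minor clones, with a mean difference of 0.30. Cybrd1 had a median of 8101 (303 to 59905) in major and 5098 (269 to 123555) in minor clones, and Slc40a1 a median of 3389 (164 to 16402) and 2180 (359 to 21778).

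With tumour as a block, none of the 6 tested genes was called between major and minor clones, while 188 of 16428 genes or 1.14% of the table were. Cybrd1 was higher in the major clone in 14 of 20 tumours, by 0.86 (SE 0.26, limma adjusted p = 0.0703, permutation p = 0.00807). Slc40a1 was higher in 13 of 20, by 0.66 (SE 0.22, adjusted p = 0.0913, permutation p = 0.0137). Onecut2 was higher in 16 of 20, by 0.34 (SE 0.10, adjusted p = 0.0682, permutation p = 0.00355). Slc10a2 was higher in the major clone in only 6 of 20, with a difference of -0.38 (SE 0.14, adjusted p = 0.114, permutation p = 0.0166). These 4 were below an unadjusted p of 0.05 but did not pass the correction. Pdx1 (adjusted p = 0.371) and Osr2 (adjusted p = 0.952) were not. The permutations swapped the labels of the clones within each tumour and were two-sided. Fabp6 was higher in the major clone in 10 of 20 tumours (permutation p = 0.206). Fgf15 was equal, at 0, in 8 of 20 and higher in the major clone in 7 (permutation p = 0.440).

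Markers of several cell types were higher in major clones as well. All tested genes had higher values in major clones for enterocytes (10 of 10, median difference 0.37), enteroendocrine cells (6 of 6, 0.55), macrophages (8 of 8, 0.28), smooth muscle (5 of 5, 0.58) and erythroid cells (5 of 5, 0.32), and 5 of 6 for fibroblasts (0.68), against a median of 0.00739 over all genes. Of these, the brush border disaccharidase Sis (1.10, limma adjusted p = 0.0439) and the granin Chgb of enteroendocrine cells (0.89, adjusted p = 0.0207) were called, against 1.14% of all genes. Both are named after their values were seen. Lists of regional genes besides the set, described below, were mostly higher in major clones too, whether proximal or distal. Higher values were fitted for 11 of 12 distal enterocyte genes (median difference 0.46) and 7 of 8 genes of bile acid handling (0.41). The same held for 14 of 16 proximal enterocyte genes (0.37), and no gene of these lists was called, against 1.14% of all genes. The summed enterocyte genes had a median of 224974 (91751 to 429655) in major and 176790 (91458 to 332163) in minor clones, and were higher in the major clone in 17 of 20 tumours. The summed fibroblast genes had a median of 7504 (1495 to 20240) and 5584 (1240 to 18307), the macrophage genes 2938 (1219 to 4730) and 2346 (1054 to 6691), and the enteroendocrine genes 4328 (1954 to 8546) and 2683 (1358 to 6938). The part of these markers in the clone differences was not tested.

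**Figure D4:**
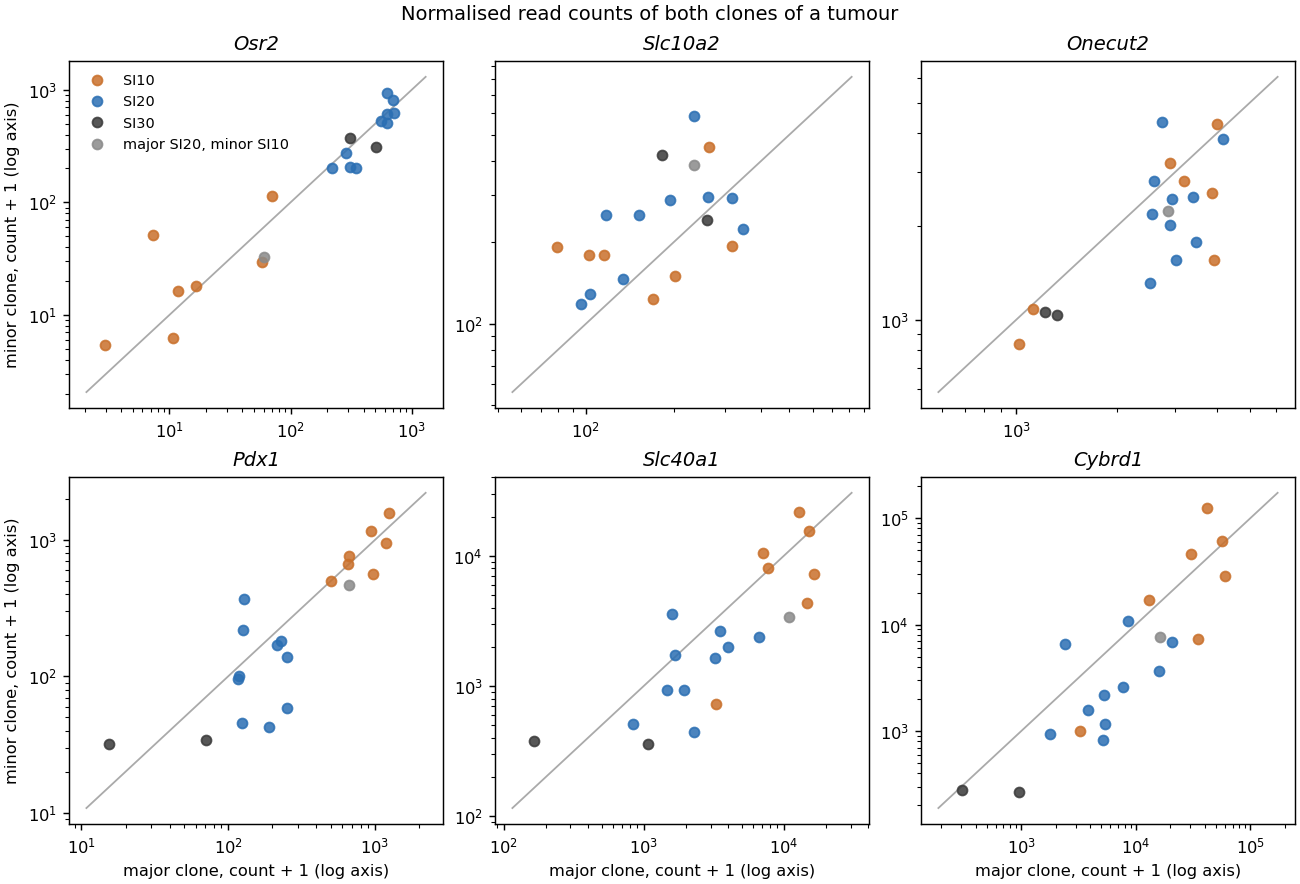
Normalised read count plus 1 of the minor clone against that of the major clone on log axes, with 1 point for each of the 20 divided tumours, coloured by segment label, and a grey line of equal values. The points of Osr2 fell into separate SI10 and SI20 groups along the line, while those of Slc10a2 and Onecut2 from SI10 and SI20 were mixed.

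A tumour with a high level in its major clone tended to have a high level in its minor clone. Over the 20 tumours, the level in both clones was related for Cybrd1 (Pearson r = 0.868, permutation p = 1e-05, Spearman rho = 0.878, permutation p = 2e-05) and Slc40a1 (r = 0.815, permutation p = 2e-05, rho = 0.830, permutation p = 2e-05). It was related for Onecut2 (r = 0.766, permutation p = 1e-05, rho = 0.580, permutation p = 0.00661) and Slc10a2 (r = 0.518, permutation p = 0.0226, rho = 0.559, permutation p = 0.0152). Without the 2 tumours farthest from the median, r was 0.819, 0.812, 0.647 and 0.457 for these genes in the same order. Permutations exchanged tumours within each mouse, and 1e-05 was the smallest value they could give. Relations were computed for all 8 genes and these p-values are not adjusted. Because the clones of a tumour share a segment and a mouse, r was computed again after the means of segment and mouse were removed, in 19 tumours. It was then 0.639 for Cybrd1, 0.508 for Slc40a1, 0.721 for Onecut2 and 0.263 for Slc10a2, against a median of 0.193 over 16427 genes. Over these genes, 5.53% had an r at least as high as Cybrd1, 14.7% as Slc40a1, 2.34% as Onecut2 and 41.3% as Slc10a2.

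The clones were also compared within segments, since Osr2 and Pdx1 separated them. Within a segment, permutations exchanged all its tumours across both mice, so differences between the mice can enter these p-values. Slc10a2, for example, had a mean log2 level of 7.15 in female and 8.01 in male divided SI20 tumours. Onecut2 had an r of 0.298 within the 10 SI20 tumours (permutation p = 0.404, rho = 0.188, permutation p = 0.606). Its r of 0.826 within the 7 SI10 tumours (exact permutation p = 0.0268, rho = 0.643, exact permutation p = 0.139) was -0.20 without the 2 farthest tumours, so that relation rested on them. Slc40a1 had an r of 0.516 within SI20 (permutation p = 0.128, rho = 0.430, permutation p = 0.219) and of 0.707 within SI10 (exact permutation p = 0.0819, rho = 0.214, exact permutation p = 0.662), which became 0.201 and -0.03 without the 2 farthest. Cybrd1 had an r of 0.475 within SI20 (permutation p = 0.168, rho = 0.600, permutation p = 0.0743) and of 0.823 within SI10 (exact permutation p = 0.0351, rho = 0.607, exact permutation p = 0.167), which became 0.143 and 0.222. Slc10a2 had an r of 0.648 within SI20 (permutation p = 0.0418, rho = 0.673, permutation p = 0.0389, r = 0.825 without the 2 farthest) and of 0.315 within SI10 (exact permutation p = 0.560, rho = 0.321, exact permutation p = 0.498, r = 0.503 without the 2 farthest). So none of the relations of Onecut2, Slc40a1 and Cybrd1 passed within SI20, and those within SI10 rested on 2 tumours. Within the 10 SI20 tumours, Osr2 of the major and minor clone was related (r = 0.917, permutation p = 0.00134, rho = 0.818, permutation p = 0.00592, and r = 0.939 without the 2 farthest tumours). In the 7 SI10 tumours the relation of Osr2 had an r of 0.690 (exact permutation p = 0.0796, rho = 0.643, exact permutation p = 0.139) and fell to 0.347 without the 2 farthest tumours. Pdx1 showed no relation within SI20 (r = -0.09, permutation p = 0.791, rho = 0.0788, permutation p = 0.839, r = 0.0325 without the 2 farthest). Within SI10 it had an r of 0.741 (exact permutation p = 0.0603, rho = 0.714, exact permutation p = 0.0881, r = 0.518 without the 2 farthest). Over the 20 tumours, r was 0.944 for Osr2 (rho = 0.941) and 0.855 for Pdx1 (rho = 0.868), each with permutation p = 1e-05. After removal of segment and mouse means, r was 0.732 for Osr2, which 2.02% of genes reached, and 0.122 for Pdx1, which 58.7% of genes reached. Fabp6 (r = -0.101, permutation p = 0.719, rho = -0.211, permutation p = 0.354) and Fgf15 (r = 0.324, permutation p = 0.156, rho = 0.163, permutation p = 0.504) showed no relation over the 20 tumours.

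Tumour 22 of the female mouse, whose clones had different segment labels, had higher Osr2, Pdx1, Slc40a1 and Cybrd1 in its major clone. Osr2 was 59.1 in the major clone, labelled SI20, and 31.8 in the minor clone, labelled SI10. Pdx1 was 662 and 463, Slc40a1 10886 and 3364 and Cybrd1 16280 and 7670. The mean Osr2 of both clones (45.4) and their mean Pdx1 (563) lay within the range of divided SI10 tumours and outside that of divided SI20 tumours.

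Of the other genes of iron handling, Slc11a2 and Fth1 fell in SI20 in undivided tumours, and Fth1 fell in divided tumours as well. The list held 10 genes besides the set and all were tested. In undivided tumours 2 of 10 were called, both lower, against 0.17% of all genes, and in divided tumours 1 of 10, against 0.304%. The list's median difference was -0.56 in undivided and -0.19 in divided tumours, against -0.000384 and 0.00728 over all genes. In undivided tumours 8 of the 10 genes were lower in SI20 and 2 were higher, and 8 of the 10 did not pass. Slc11a2, the apical iron transporter DMT1, fell from a median of 58655 (13381 to 174755) in SI10 to 4720 (2111 to 34024) in SI20, a difference of -2.76 (SE 0.50, limma adjusted p = 0.0221). Fth1, the heavy chain of the iron store ferritin, fell from a median of 253954 (77247 to 554348) to 74578 (45719 to 191729), a difference of -1.37 (SE 0.22, adjusted p = 0.0140). In divided tumours Fth1 was again called (-0.89, SE 0.16, adjusted p = 0.0194), and Slc11a2 differed by -2.54 (SE 0.61) without passing (adjusted p = 0.0950). Slc11a2 was the 1 gene of this list called between clones, against 1.14% of all genes. It was higher in major clones by 1.06 (SE 0.25, adjusted p = 0.0439).

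No gene of bile acid handling was called between segments. Of 9 listed genes besides the set, 8 were tested in undivided and in divided tumours. In undivided tumours all 8 had lower values in SI20, with a median difference of -0.30, and the nuclear receptor Nr0b2 (SHP, named after its value was seen) differed by -1.26 (SE 0.45, unadjusted p = 0.00973, limma adjusted p = 0.499). In divided tumours 6 of 8 were higher in SI20, with a median difference of 0.07. In a list of 13 distal enterocyte genes, 12 were tested. None was called in undivided tumours, against 0.17% of all genes. In divided tumours, where 0.304% of all genes were called, 2 were called, both higher in SI20. These were the phosphate cotransporter Slc34a2 and the peptidase Naaladl1. Slc34a2 rose from a median of 97.8 (63.8 to 241) in divided SI10 tumours to 655 (317 to 1223) in SI20 and to 1195 and 1612 in SI30. The difference was 2.65 in SI20 (SE 0.29, limma adjusted p = 0.000182) and 3.60 in SI30 (SE 0.50, adjusted p = 0.00430). Naaladl1 had a median of 374 (94.0 to 815) in SI10 and 1561 (706 to 5053) in SI20, a difference of 2.18 (SE 0.39, adjusted p = 0.0170). In undivided tumours Slc34a2 differed by 2.62 (SE 0.67, adjusted p = 0.158) and Naaladl1 by 1.55 (SE 0.56, adjusted p = 0.517). Of 16 proximal enterocyte genes, all were tested and none was called in either kind of tumour, with median differences of -0.52 in undivided and -0.02 in divided tumours. Of the 16, 5 had higher values in SI20 in undivided and 8 in divided tumours. Large differences went both ways, 2.08 and 2.61 for Lct and -1.87 and -2.31 for Trpv6 (both named after their values were seen). Of 14 regional transcription factors, 11 were in the table and 7 were tested in undivided tumours, and none was called.

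Across the table, 10 genes were called with the same sign in undivided and in divided tumours, and Osr2, Pdx1 and Slc40a1 were 3 of them. Osr2 was the only one higher in SI20. Of the genes lower in SI20, Akp3, an intestinal alkaline phosphatase, had the largest differences, of -5.34 in undivided and -5.36 in divided tumours. Its median fell from 102352 to 536 in undivided and from 47722 to 535 in divided tumours. Next came the monocarboxylate transporter family gene Slc16a9, with differences of -3.82 and -3.97. By the mean of both differences, Pdx1 (-3.05 and -2.58), the peptidase gene Ecel1 (-2.91 and -2.39) and Slc40a1 (-2.96 and -2.18) followed.

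The genes most like each member over the 63 libraries were named by Pearson's r of the log2 values, as a description, since clones of 1 tumour share their origin. Slc40a1 was most like Cybrd1 (r = 0.964), Slc11a2 (0.949) and the metal exporter Slc30a10 (0.946). Cybrd1 was most like Slc40a1, Slc11a2 (0.933) and Slc30a10 (0.929). Pdx1 was most like Slc40a1 (0.934), Cybrd1 (0.906) and Gm27033 (0.899). Osr2 was most like Pmp22 (0.777), Srebf1 (0.771) and the peptide hormone gene Guca2a (0.753), and its r was -0.771 with Pdx1, -0.744 with Slc40a1 and -0.691 with Cybrd1. Onecut2 was most like Pcx (0.830), Grk5 (0.812) and Atrnl1 (0.811). Slc10a2 was most like Gm15199 (0.819), Krt6a (0.734) and Btbd17 (0.706). Slc10a2 was not like Osr2 (-0.03), and Onecut2 had an r of 0.345 with Pdx1.

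Marker genes of epithelium and of other cells were examined beside these results. All 7 listed genes of intestinal epithelium were present, with a sum of 128440 to 462735 in undivided and 198296 to 361862 in divided tumours. The sum of 10 enterocyte genes had a median of 282500 (121705 to 703806) in undivided SI10 and 274758 (111974 to 409868) in undivided SI20 tumours, and of 209245 and 225747 in divided tumours of these segments. With the mean enterocyte level as a covariate, the differences in undivided tumours were 4.80 for Osr2, -2.95 for Pdx1, -2.83 for Slc40a1 and -3.52 for Cybrd1, and all 4 remained called. In divided tumours the same covariate gave 4.55, -2.75, -2.53 and -2.95, and Cybrd1 then passed (adjusted p = 0.00594). The enterocyte sums had similar medians in both segments, so the covariate had little to adjust. Alpi, a gene of that list (named after its value was seen), was itself lower in SI20. It differed by -1.27 in undivided (limma adjusted p = 0.195) and -0.90 in divided tumours (adjusted p = 0.286). The part of enterocyte content in the segment differences was thus not tested.

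Markers of other cell types, apart from most pancreatic acinar genes, were present in both segments, with overlapping sums. None of the genes listed for other cell types was called between SI20 and SI10 in either kind of tumour. In undivided tumours the sum of 6 fibroblast genes had a median of 2475 (433 to 10937) in SI10 and 5247 (2183 to 10673) in SI20, and that of 8 enteroendocrine genes 7054 (2118 to 15081) and 3834 (2542 to 6506). All 6 fibroblast genes had higher values in SI20 (median difference 0.93), and all 7 tested enteroendocrine genes lower ones (-0.87). The sum of 8 marker genes of macrophages, cells that handle iron as well, was 2896 (635 to 6381) in SI10 and 2786 (1711 to 3914) in SI20. The sums were 1609 and 1712 for 5 smooth muscle genes and 10364 and 9175 for 6 erythroid genes. Of 3 Brunner's gland genes, 2 were in the table, with summed medians of 3481 and 4495. Gkn3 made up most of this sum (medians 3238 and 4451), while Tff2 went the other way (173 and 97.5). Of 7 pancreatic acinar genes 3 were in the table, with summed medians of 2332 and 2491. Cela1 made up nearly all of that sum (2318 and 2482), while Pnlip (1.27 and 0.618) and Ctrb1 (3.60 and 3.38) were near 0. The part of all these markers in the results was not tested.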

How the data were processed

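Tumour pieces in RNAlater yielded RNA for a stranded, paired-end poly(A) library each. Per the labels and the methods of the study, the authors trimmed reads with Trimmomatic 0.39, quantified them with Salmon 1.9.0 against GRCm39 (Gencode M30) and normalised them with DESeq2, with FastQC 0.11.9, STAR 2.7.7a and Picard 2.27.3 for quality checks. The deposited signal is this normalised read count per gene. It is not whole reads, so depth is known only through its sum, and no count model was fitted.

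Values were analysed as log2(value + 1), with genes of a mean of at least 10, by limma 3.58.1 (eBayes with trend, R 4.3.3, Benjamini-Hochberg adjustment over all tested genes, threshold 0.05). Tests between segments took the mean log2 of both clones per tumour, with mouse as a covariate. Tests between clones took tumour as a block, because both clones came from 1 tumour. The fits of SI20 against SI10 and of the clones were tried on these same libraries. For this, labels were shuffled and known fold changes were added to some genes. Permutations (Python 3.11.15, numpy 2.4.6, scipy 1.17.1) used 100000 draws within mouse or tumour, or, for clone relations within a segment, over all its tumours. All arrangements were enumerated instead for the segment tests of divided tumours (7350) and for the clone relations within SI10 (5040).

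The genes and lists were chosen with earlier results of these data known. Besides the 8 genes, the text names up to 4 called genes of a list, up to 5 genes each way (members included) called in both kinds of tumour, and the 3 genes most like each tested gene. Exceptions are marked where they stand. Alternatives were another pseudocount, filter, scaling, covariate or clone, 1 mouse, and the omission of each tumour. Omission of male tumours 15, 17 and 18, alone or with female tumour 6, was chosen after seeing the data.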

Additional observations from a re-analysis of the deposited data

Results flagged for a closer look

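In 42 groups of 4 to 7 tumours (6 genes in 7 groups of the same kind, segment and mouse), 4 held a tumour set apart from the rest by Dixon's ratio, the gap to the nearest tumour over the range of the group on the log2 scale. Chance alone sets apart about 5% of groups. Slc10a2 was low in undivided male tumour 15 of SI10 (25.8, against 94.2 to 243 in the other 6 tumours, ratio 0.574) and in undivided male tumour 18 of SI20 (16.4, against 133 to 401 in the other 5, ratio 0.649). Pdx1 was low in undivided male tumour 3 of SI10 (1036, against 2166 to 3189 in the other 6, ratio 0.656). Onecut2 was low in undivided female tumour 10 of SI20 (1336, against 2591 to 3306 in the other 4, ratio 0.731).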

How the results depend on the processing

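Over 798 alternative values for single genes of the set, 719 kept their direction and side of the threshold, 61 lost their call, 6 gained one and 12 changed sign. Changes of sign concerned genes that were not called. For Slc10a2 and Onecut2 in divided tumours, the female mouse alone gave -0.0378 and -0.42. Osr2 between clones became 0.00799 with a pseudocount of 5, 0.00527 in the male mouse alone and 0.14 in SI20 tumours alone. The divided minus undivided difference of Osr2 became 0.47 with a pseudocount of 5 and 0.00638 with quantile normalization. Leaving out 1 tumour gave -0.27 to 0.0105 for Onecut2 in undivided tumours and -0.0781 to 0.12 for Osr2 between clones.

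Leaving out 1 tumour moved the number of called genes between 5 and 53 in undivided tumours, 24 (without female 19) and 246 (without female 23) in divided SI20 against SI10, 2 and 3 in SI30 against SI10, 0 and 1 in SI30 against SI20, and 25 (without male 20) and 859 (without female 19) between clones. In undivided tumours Osr2 lost its call without female 2, 5 or 10 or male 1, 5, 6, 7, 8, 9, 17 or 18 (adjusted p up to 0.0639). Pdx1 lost it without female 2, 5, 8 or 10 or male 1, 2, 5, 6, 7, 8, 9, 15 or 17 (up to 0.0788), and Slc40a1 without female 10 or male 8 or 9 (up to 0.0552), while Cybrd1 kept it (up to 0.0401). Their differences kept their sign, at 4.40 to 5.22, -3.36 to -2.55, -3.27 to -2.61 and -4.03 to -3.25.

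In undivided tumours the count was 28. It was 0 in the female and 46 in the male mouse alone, 15 without the mouse term, 18 with a pseudocount of 0.1 (Osr2 then had an adjusted p of 0.0588) and 0 without male tumours 15, 17 and 18. In divided tumours the count of 50 became 125 with all clones and tumour as a random block (Cybrd1 then passed, adjusted p = 0.0240), 109 with the enterocyte covariate, 0 and 6 in the female and male mouse alone, and 14 and 10 in major and minor clones alone. For SI30 against SI10 it moved from 40 to 15 in the female mouse alone and to 67 when scaled to the same sum. For SI30 against SI20 it moved from 1 to 0 in the female mouse alone and when scaled to the same sum, and to 2 without the filter. Between clones the count of 188 became 0 in SI10 and 1 in SI20 tumours alone, 0 and 33 in the female and male mouse alone, 89 without trend, 85 without the filter, 346 after quantile normalization (38.4% higher in major clones, against 58.5%) and 292 when scaled to the same sum. Without the replicate block, the pairing of clones by tumour, it was 1, and no gene of the set was called with or without the block. The median r of major with minor clones over the 6 tested genes was 0.835 and moved to 0.573 after removal of segment and mouse means. The causes of these moves were not tested. Scaling to the same sum raised the median difference of all genes in undivided tumours to 0.106.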
